A study of Mus musculus with 8 samples.

Results

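The E2F transcription factors and the retinoblastoma proteins that restrain them were followed in mouse mammary tumours treated with SKI-606, a drug also called bosutinib that blocks the tyrosine kinases Src and Abl. The family was taken as 10 genes, E2f1 to E2f8, Rb1 and Rbl1, of 18193 genes with a probe annotated to a single symbol. All 22 probes annotated to only 1 of these symbols were used, of 45037 probes tested. Among these 10 genes, the 3 activators are E2f1, E2f2 and E2f3, the 5 repressors are E2f4 to E2f8, and the 2 pocket proteins are Rb1 and Rbl1.

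E2F proteins bind the promoters of genes that a cell needs to enter S phase. In resting cells, pocket proteins hold the E2Fs inactive or turn them into repressors. Cyclin D and cyclin E kinases phosphorylate the pocket proteins late in G1 and set the activators free. E2F7 and E2F8, the atypical members, bind DNA without a dimer partner or a pocket protein, are themselves induced by activator E2Fs, and shut the programme down later in the cycle. In the mammary gland, as in other tissues, the pathway is known for its loss of restraint in tumours.

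The 8 samples were mammary tumours of female FVB/N-Tg(MMTV-PyVT)634Mul/J mice, 4 from mice given SKI-606 by oral gavage at 100 mg/kg and 4 from vehicle mice. All carried the MMTV-PyMT transgene, in which the mammary tumour virus promoter drives polyoma middle T antigen in the mammary epithelium, so no normal mammary tissue was compared. The drug was carried in 0.4% Tween 80 with 0.5% methocellulose. The labels state neither the length of treatment nor the age. Every tumour sample has 1 Affymetrix array, and precision is limited by how few arrays there are. Which animal gave which sample is not listed, so p-values measure the spread between these samples, which may be technical.

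Signals are whole-number array signals recovered from the deposited ratios and quantile normalized between arrays, after which the median probe stood at 16.5. Fold changes are differences of log2(signal + 16), SKI-606 minus vehicle, ± SE, with n = 4 per group, and this scale understates the change of dim genes. Over all probes limma called 0 at an adjusted p under 0.05 (0.0%), and 3770 had an unadjusted p under 0.05 (8.37%). SKI-606 samples 1 and 4 stood apart on the first principal component, which held 34% of the variance, at 81.1 and 72.4 against -38.5 to -14.9 in the other samples. On the second component, with 17.9% of the variance, vehicle sample 3 lay at -81 and the other 7 samples between -2.2 and 35.3. These 3 samples also had high squamous keratin signals, with Krt6a at 4162 and 4903 in SKI-606 samples 1 and 4 and at 1577 in vehicle sample 3, against 11 to 66 in the other samples. The luminal epithelial genes bore out the tissue label in every sample, with Krt8 between 4839 and 6337 in SKI-606 samples and between 5342 and 6034 in vehicle samples, and the summed signal of 9 luminal markers from 27023 to 32763 in SKI-606 samples and from 29546 to 34263 in vehicle samples.

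E2f7 was the only 1 of 10 members whose brightest probe did not overlap between the groups. Of all genes 2.03% lay wholly lower and 2.39% wholly higher. E2f7 stood in SKI-606 tumours at 0.581 times the vehicle level on the scale of signal + 16. Its close relative E2f8 and the pocket protein gene Rbl1 had lower means, which lay near 0 once SKI-606 samples 1 and 4 were left out. Of the activators, E2f1 and E2f2 did not have lower means and E2f3 did, in both its probes. Without SKI-606 samples 1 and 4 the brightest E2f3 probe was at -0.03 and the second at -0.77. The pocket protein gene Rb1 had a higher mean. Of 32 measured G1/S genes listed as E2F targets 30 had lower means. Their median log2 fold change was -0.51, and it became -0.03 without SKI-606 samples 1 and 4. No member passed the adjusted threshold. By the brightest probe 5 members lay below 0 and 5 above, with a median of -0.04, beside a median of -0.02 and 52.9% below 0 over all genes. In the plot of fold changes by probe, 12 of the 22 probes lie below 0 and 10 above, beside 53.7% below 0 of all probes.

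**Figure D1:**
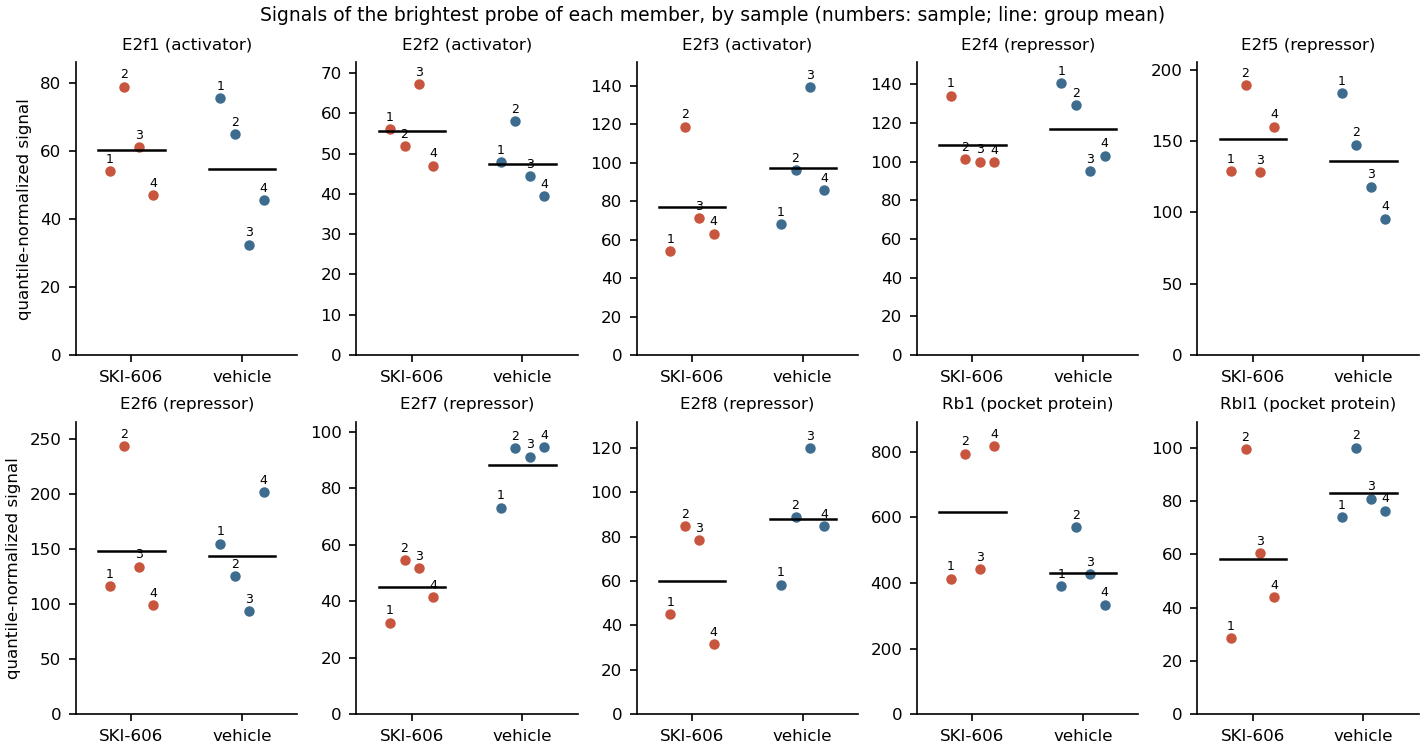
Quantile-normalized signal of the brightest probe of each of the 10 members, one panel per gene with its own linear axis from 0. Points are samples (numbers give the sample), lines are group means, SKI-606 left and vehicle right. The 4 SKI-606 points of E2f7 sit between 32.4 and 54.6, all below the vehicle points, which sit between 73.1 and 94.6, while the groups overlap in the other 9 genes.

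E2f1 encodes the founding activator, a driver of S phase entry that can also trigger cell death. Its brightest probe had signals of 54.1, 78.9, 61.2 and 47.0 in SKI-606 samples 1 to 4, against 75.5, 64.9, 32.4 and 45.5 in vehicle samples 1 to 4. The groups overlapped throughout, with vehicle sample 3 the lowest of all 8. The log2 fold change was 0.14 ± 0.22 (95% CI -0.36 to 0.64, limma adjusted p = 0.895, exact two-sided permutation p = 0.629). A second probe of E2f1 was at 0.47 ± 0.30, with vehicle sample 3 again the lowest at 8.2. The third, 1447840_x_at, read at most 3.6 in any sample and is uninformative. Without vehicle sample 3 the brightest probe stood at -0.03, so the sign of E2f1 rests on that sample.

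E2f2, an activator with an overlapping role, read 56.1, 51.8, 67.2 and 47.0 in SKI-606 samples 1 to 4, against 47.8, 58.1, 44.4 and 39.5 in vehicle samples 1 to 4. SKI-606 sample 3 was the highest and vehicle sample 4 the lowest, and the groups overlapped. On the log2 scale the difference was 0.17 ± 0.15 (95% CI -0.16 to 0.51, limma adjusted p = 0.781, exact two-sided permutation p = 0.229). Its sign was the same in all 19 alternatives. A dim second probe, at most 19.6 in any sample, was at -0.01 ± 0.26.

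E2f3, the activator gene that makes 2 protein forms from separate start sites, gave different pictures by probe. The brightest probe, 1434564_at, read 54.1, 118.9, 71.2 and 63.2 in SKI-606 samples 1 to 4, against 68.1, 96.2, 139.5 and 85.9 in vehicle samples 1 to 4. SKI-606 sample 2 lay above all but vehicle sample 3, and the log2 fold change was -0.30 ± 0.25 (limma adjusted p = 0.773, exact two-sided permutation p = 0.343). Probe 1427462_at read 36.4, 21.2, 25.2 and 26.2 in SKI-606 samples 1 to 4, against 36.1, 64, 64.4 and 43.2 in vehicle samples 1 to 4. Here the groups met at one point, SKI-606 sample 1 lying just above vehicle sample 1. The difference was -0.64 ± 0.19 (limma adjusted p = 0.552, exact two-sided permutation p = 0.0571). Without SKI-606 samples 1 and 4 and vehicle sample 3 the second probe stood at -0.68 ± 0.23 and the first at 0.14 ± 0.25. Which transcript each probe reads is not annotated in the table used.

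E2f4 and E2f5 encode the repressors that work in complex with pocket proteins, mainly in resting cells. E2f4 read 134.1, 101.2, 99.9 and 99.8 in SKI-606 samples 1 to 4, against 140.5, 129.0, 94.9 and 103.1 in vehicle samples 1 to 4. The spread in each group was wider than the difference of -0.09 ± 0.16 (95% CI -0.45 to 0.28, limma adjusted p = 0.914, exact two-sided permutation p = 0.714), and the sign turned with array-median scaling and on the deposited ratios, at 0.17 and 0.20. The brightest E2f5 probe, 1417444_at, read 129.0, 188.9, 128.1 and 160.1 in SKI-606 samples 1 to 4, against 183.5, 147.4, 118.0 and 95.6 in vehicle samples 1 to 4. SKI-606 sample 2 was the highest and vehicle sample 4 the lowest, and the groups overlapped, at 0.16 ± 0.21 (limma adjusted p = 0.865, exact two-sided permutation p = 0.514).

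E2f5 probe 1447625_at behaved otherwise. It read 108.4, 96.2, 84.2 and 92.4 in SKI-606 samples 1 to 4, against 132.8, 154.8, 255.9 and 215.3 in vehicle samples 1 to 4. Every SKI-606 value lay below every vehicle value. The log2 fold change was -0.85 ± 0.20 (95% CI -1.30 to -0.40, limma adjusted p = 0.517), and the exact two-sided permutation test gave p = 0.0286, its lowest possible value over 70 assignments. Without the 3 samples that stood apart it was -0.77 ± 0.23. The third E2f5 probe, 1460207_s_at, was at -0.05 ± 0.18. The 3 probes of E2f5 therefore disagreed, and their mean stood at -0.25, below 0 where the brightest probe was above it. The annotation table gives no accession for 1447625_at.

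**Figure D2:**
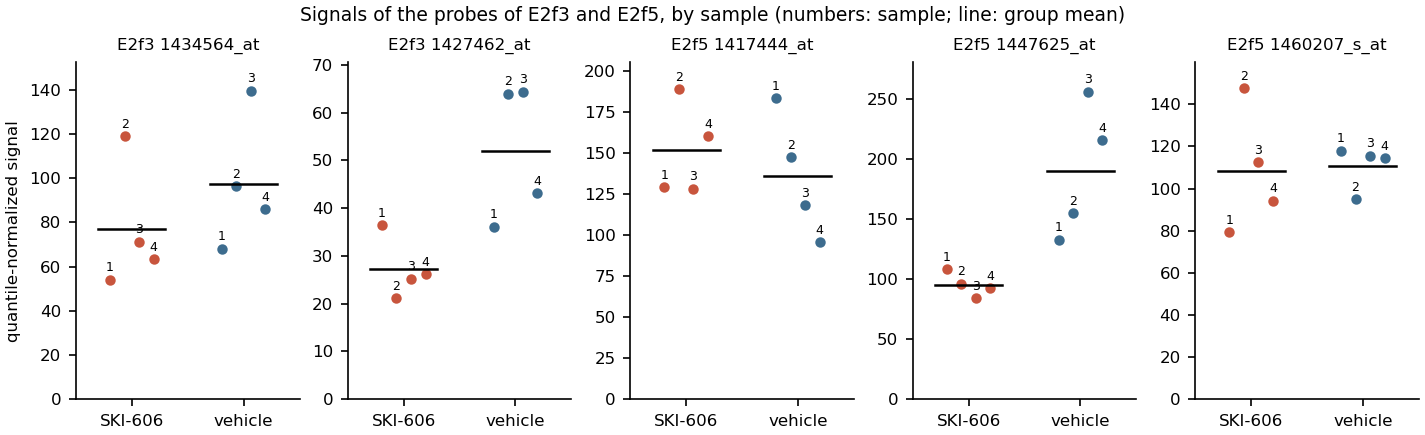
Quantile-normalized signal of each probe of E2f3 and E2f5, on linear axes from 0. Points are samples (numbers give the sample), lines are group means, SKI-606 left and vehicle right. In E2f5 1447625_at all SKI-606 points lie between 84.2 and 108.4 and all vehicle points between 132.8 and 255.9, a gap that the other 2 probes of E2f5 do not show.

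E2f6 encodes a repressor that acts with polycomb proteins and without pocket proteins, and holds germline genes silent in mouse somatic cells. It read 116.6, 243.4, 134.1 and 98.9 in SKI-606 samples 1 to 4, against 154.8, 125.5, 93.5 and 201.9 in vehicle samples 1 to 4. SKI-606 sample 2 was the highest and vehicle sample 3 the lowest. The difference of 0.01 ± 0.29 (95% CI -0.63 to 0.65, limma adjusted p = 0.996) had no stable sign, as 5 of 19 alternatives turned it. The second probe, at most 24.0 in any sample, was at -0.32 ± 0.23. Of the E2F6-silenced germline genes Stag3, Smc1b and Slc25a31, each read at most 9.1 in any sample, and 0 of 3 had an unadjusted p under 0.05.

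E2f7 read 32.4, 54.6, 51.6 and 41.4 in SKI-606 samples 1 to 4, against 73.1, 94.1, 91.1 and 94.6 in vehicle samples 1 to 4. Every SKI-606 value lay below every vehicle value, including SKI-606 samples 2 and 3, which did not stand apart over all probes. The means were 45.0 ± 10.2 in SKI-606 and 88.2 ± 10.2 in vehicle samples (SD, n = 4 each). The log2 fold change was -0.78 ± 0.16 (95% CI -1.14 to -0.42, limma adjusted p = 0.517, exact two-sided permutation p = 0.0286). Of all genes 2.03% had SKI-606 values wholly below the vehicle values and 4.31% were lower at an unadjusted p under 0.05. By the brightest probe 1 of 10 members met each rule, E2f7 in both. Over probes it was 2 of 22 that did not overlap, beside 1.86% of all probes on the lower side, and 3 of 22 that were lower at an unadjusted p under 0.05, beside 3.79%. On the higher side 0 of 22 probes met either rule, beside 1.83% and 4.59% of all probes, and 0 of 10 genes did not overlap, beside 2.39%. Without SKI-606 samples 1 and 4 and vehicle sample 3, E2f7 stood at -0.57 ± 0.18, and its sign was the same in all 19 alternatives, from -0.98 to -0.48. E2f7 had 1 probe on the array, so the difference has no second probe to set beside it.

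E2f8, the other atypical repressor, read 45.1, 84.8, 78.5 and 31.5 in SKI-606 samples 1 to 4, against 58.4, 88.8, 120.0 and 84.8 in vehicle samples 1 to 4. SKI-606 samples 1 and 4 were the lowest of all 8, and samples 2 and 3 lay inside the vehicle range. On the log2 scale the difference was -0.49 ± 0.27 (95% CI -1.10 to 0.13, limma adjusted p = 0.661, exact two-sided permutation p = 0.143). Without SKI-606 samples 1 and 4 it was -0.06, and without vehicle sample 3 as well it was 0.08 ± 0.21. The second probe, at most 13.4 in any sample, was at -0.32 ± 0.19.

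Rb1 encodes the retinoblastoma protein, the main brake on the activators. It read 412.6, 793.5, 441.0 and 817.0 in SKI-606 samples 1 to 4, against 390.4, 570.4, 426.4 and 333.9 in vehicle samples 1 to 4. SKI-606 samples 2 and 4 lay above every vehicle sample, and samples 1 and 3 within the vehicle range. The log2 fold change of 0.46 ± 0.26 was the widest on the higher side among the brightest probes (95% CI -0.13 to 1.05, limma adjusted p = 0.669, exact two-sided permutation p = 0.2). It was 0.48 ± 0.33 without the 3 samples that stood apart, between 0.305 and 0.624 with 1 sample left out, and its sign was the same in all 19 alternatives. The other Rb1 probe read at most 14.1 in any sample.

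Rbl1 encodes p107, a pocket protein that is itself made from an E2F-controlled promoter and rises in cycling cells. It read 28.5, 99.5, 60.4 and 43.9 in SKI-606 samples 1 to 4, against 73.9, 100.0, 80.9 and 76.4 in vehicle samples 1 to 4. SKI-606 samples 1, 3 and 4 lay below every vehicle sample, while SKI-606 sample 2 lay near the top of all 8. On the log2 scale the difference was -0.50 ± 0.27 (95% CI -1.09 to 0.10, limma adjusted p = 0.648, exact two-sided permutation p = 0.171). It shrank to -0.07 ± 0.24 without the 3 samples that stood apart, and to -0.03 with the mean of all 4 probes, of which the other 3 read at most 23.2 in any sample.

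**Figure D3:**
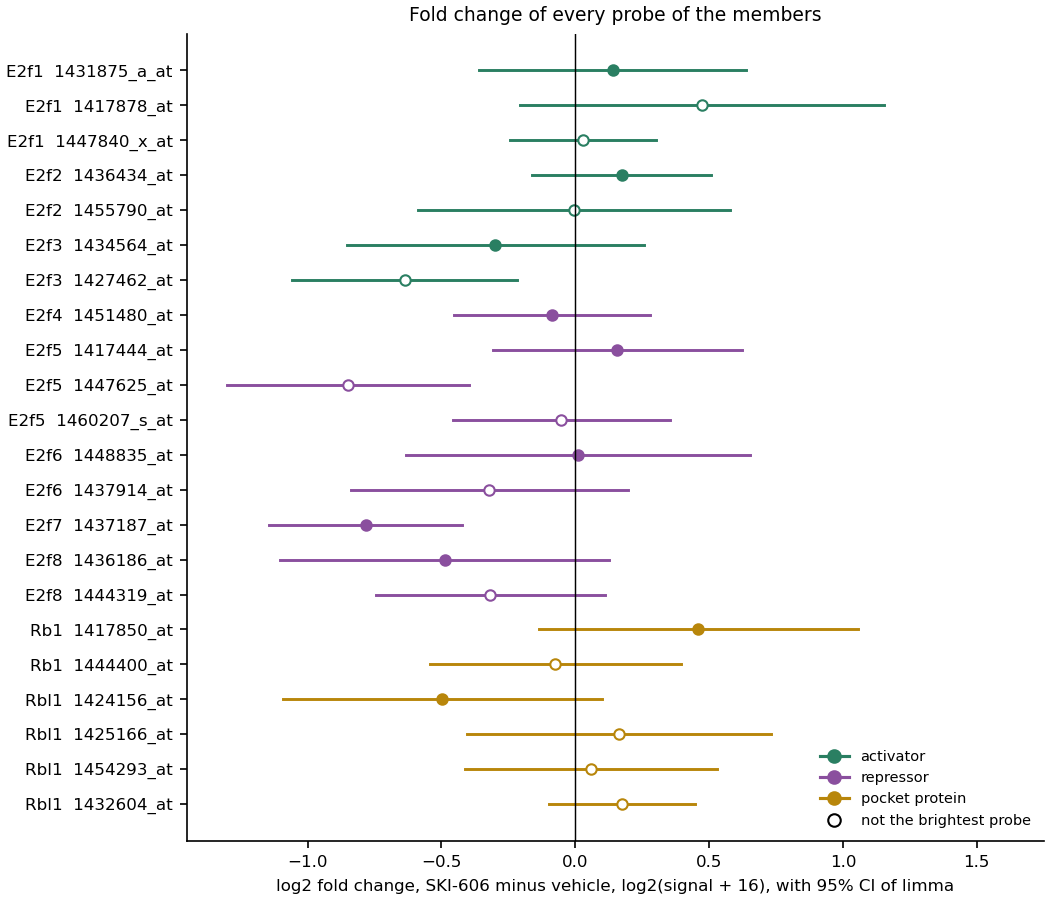
Log2 fold change, SKI-606 minus vehicle, of every probe of the members on the log2(signal + 16) scale, with the 95% confidence interval from limma (4 samples per group). Filled points are the brightest probe of a gene, open points its other probes. The intervals of E2f7, of E2f5 1447625_at and of E2f3 1427462_at lie wholly below 0, and those of the other 19 probes include it.

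Activators and repressors were then set against each other. Each gene's log2 value was expressed as its deviation from that gene's mean over the 8 samples, and deviations were averaged over a class, so that no probe's level was set against another's. The activators stood at -0.15, 0.28, 0.08 and -0.20 in SKI-606 samples 1 to 4, against 0.01, 0.16, -0.03 and -0.16 in vehicle samples 1 to 4. The repressors stood at -0.26, 0.21, -0.08 and -0.35 in SKI-606 samples 1 to 4, against 0.15, 0.17, 0.03 and 0.12 in vehicle samples 1 to 4. Both classes overlapped between the groups, and within the SKI-606 group both ran low in samples 1 and 4 and high in sample 2.

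The within-sample difference, activators minus repressors, was 0.12, 0.07, 0.15 and 0.14 in SKI-606 samples 1 to 4, against -0.14, -0.01, -0.06 and -0.28 in vehicle samples 1 to 4. Every SKI-606 value lay above every vehicle value, with means of 0.12 ± 0.04 in SKI-606 and -0.12 ± 0.12 in vehicle samples (SD, n = 4 each). Against E2f7 and E2f8 alone the difference averaged 0.32 ± 0.17 in SKI-606 and -0.32 ± 0.28 in vehicle samples (SD, n = 4 each), again without overlap. Against E2f4, E2f5 and E2f6 it averaged -0.01 ± 0.13 in SKI-606 and 0.01 ± 0.24 in vehicle samples, and the groups overlapped. Without E2f7 among the repressors the groups overlapped too, from -0.02 to 0.12 in SKI-606 and from -0.19 to 0.06 in vehicle samples. These are descriptions of a chosen set of genes and carry no p. The group difference stayed between 0.14 and 0.32 in 19 alternatives.

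**Figure D4:**
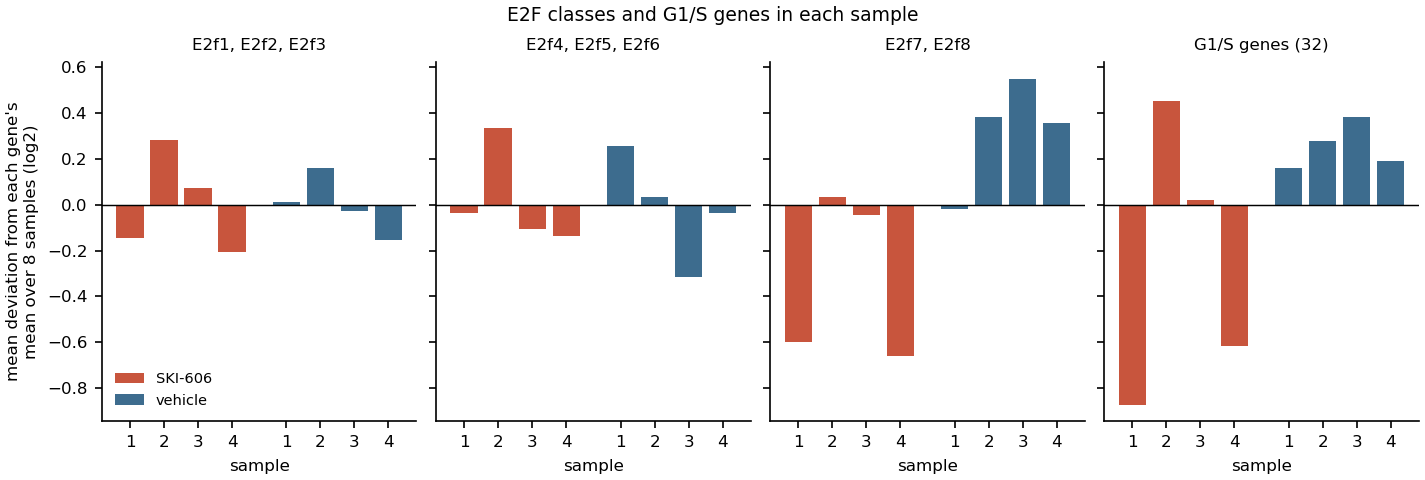
Mean deviation of each class from its genes' own means over the 8 samples, in log2 units, for the activators, the repressors E2f4 to E2f6, the atypical repressors E2f7 and E2f8, and 32 G1/S genes. Bars are single samples, SKI-606 left and vehicle right. The atypical pair and the G1/S genes are lowest in SKI-606 samples 1 and 4, at -0.60 and -0.66 and at -0.87 and -0.62, while the activators stay between -0.20 and 0.28 in all samples.

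G1/S genes listed as E2F targets, among them genes of replication proteins and nucleotide enzymes, were mostly lower as group means. Of 35 listed genes 32 were measured; 30 lay below 0 and 2 above, with a median of -0.51 beside -0.02 over all genes. At an unadjusted p under 0.05, 11 of 32 were lower and 0 higher, beside 4.31% lower and 6.07% higher over all genes, and 0 passed the adjusted threshold. Gins1, a subunit of the replicative helicase complex, averaged 51.8 ± 26.5 in SKI-606 and 109 ± 25.2 in vehicle samples (SD, n = 4 each), at -0.96 ± 0.28. Gins2, of the same complex, was at -0.74 ± 0.25, the cyclin A gene Ccna2 at -0.83 ± 0.28, and the clamp loader gene Rfc4 at -0.78 ± 0.27 (limma adjusted p = 0.558 to 0.559). Without the 3 samples that stood apart these were at -0.33 for Gins1, -0.48 for Gins2, -0.21 for Ccna2 and -0.25 for Rfc4. With the mean of all probes of a gene they were at -0.42 for Gins1, -0.69 for Gins2, -0.82 for Ccna2 and -0.81 for Rfc4. The groups did not overlap in 4 of the 32, all lower, beside 2.03% of all genes. As with E2f8 and Rbl1, the list turned on SKI-606 samples 1 and 4: without these the median was -0.03 and 0 of 32 had an unadjusted p under 0.05 on the lower side, and without vehicle sample 3 as well the median was 0.004. Leaving out SKI-606 sample 1 alone gave 5 such genes, SKI-606 sample 4 alone 4, SKI-606 sample 2 alone 21, and vehicle samples 2, 3 or 4 alone 7, 5 and 7. The count over all 18193 genes moved as well, from 784 with all samples to 552, 427, 1226, 751, 580 and 708 in these fits. It was 304 without SKI-606 samples 1 and 4, and 340 without vehicle sample 3 as well. In bulk tumours, fewer cycling cells and less RNA per cell cannot be told apart.

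**Figure D5:**
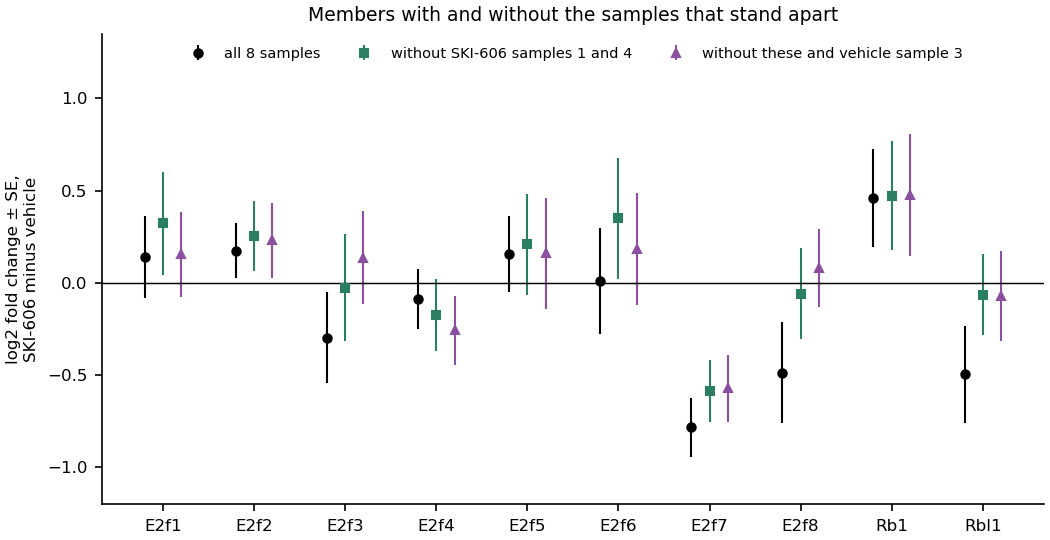
Log2 fold change ± SE of the brightest probe of each member with all 8 samples, without SKI-606 samples 1 and 4, and without these and vehicle sample 3. E2f7 stays between -0.78 and -0.57 and Rb1 between 0.46 and 0.48. By contrast E2f3 moves from -0.30 to 0.14, E2f8 from -0.49 to 0.08 and Rbl1 from -0.50 to -0.07.

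Upstream of the pocket proteins, the cyclins, kinases and inhibitors showed no common direction, with 7 of 16 below 0, 9 above and a median of 0.08, beside 52.9% below 0 over all genes. The list mixes kinases and cyclins with their inhibitors, so this count and median cannot show a shift of the pathway. At an unadjusted p under 0.05, 2 of 16 were lower and 0 higher, beside 4.31% and 6.07% of all genes. Skp2, the ubiquitin ligase subunit that marks p27 for degradation and an E2F target itself, read 36.4, 131.0, 122.2 and 47.0 in SKI-606 samples 1 to 4, against 149.6, 200.9, 165.0 and 121.6 in vehicle samples 1 to 4. SKI-606 samples 1 and 4 were the lowest by a wide margin, and the difference of -0.93 ± 0.34 (limma adjusted p = 0.564) became -0.26 ± 0.23 without the 3 samples that stood apart. With the mean of all its probes Skp2 was at -0.55. The cyclin E gene Ccne1 was at -0.62 ± 0.30, the kinase inhibitor gene Cdkn2c at -0.52 ± 0.23, and Cdkn2a, which encodes p16 and p19Arf and is known to rise when Rb is lost, at 0.52 ± 0.24 from dim signals of at most 40.4. Without SKI-606 samples 1 and 4 these stood at -0.06 for Ccne1, -0.25 for Cdkn2c and 0.20 for Cdkn2a. Leaving out 1 sample also moved Ccne1, to -0.37 without SKI-606 sample 1, and Cdkn2c, to -0.33 without SKI-606 sample 4.

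Among dimer partners and the MuvB complex, which acts with other proteins on mitotic genes, 7 of 9 lay below 0. The list had a median of -0.28, and 52.9% of all genes lay below 0. At an unadjusted p under 0.05, 1 of 9 was lower and 0 higher, beside 4.31% and 6.07% of all genes. Mybl2, the B-Myb gene and a classical E2F target, averaged 49.4 ± 20.6 in SKI-606 and 81.5 ± 11.1 in vehicle samples (SD, n = 4 each), at -0.62 ± 0.22 (limma adjusted p = 0.560). It became -0.23 ± 0.21 without the 3 samples that stood apart, and was at -0.35 with the mean of all its probes. Tfdp2, a dimer partner, was at -0.35 ± 0.20, Foxm1, a driver of mitotic genes, at -0.35 ± 0.20, and Lin52, a MuvB subunit of dim signal, at 0.44 ± 0.22. Without SKI-606 sample 4 alone Tfdp2 was at -0.185 and Foxm1 at -0.19, and without the 3 samples that stood apart they were at -0.10 and -0.12. Tfdp2 was at -0.09 with the mean of all its probes, and Lin52 at 0.24 without vehicle sample 2. Of the corepressors and E2F6 partners 11 of 14 measured lay below 0, with a median of -0.18, beside 52.9% below 0 over all genes. At an unadjusted p under 0.05, 1 of 14 was lower and 0 higher, beside 4.31% and 6.07% of all genes. That gene was Yaf2, a polycomb partner, at -0.35 ± 0.15, and Cbx3, L3mbtl2 and Pcgf6 were at -0.43 ± 0.20, -0.30 ± 0.15 and -0.45 ± 0.25. Pcgf6 was at -0.22 without SKI-606 sample 1 and at -0.05 without the 3 samples that stood apart. With the mean of all its probes Pcgf6 was at -0.14. L3mbtl2 was at -0.19 without SKI-606 sample 4. Without the 3 samples Yaf2 was at -0.22 and Cbx3 at -0.25. Array-median scaling moved the median of the corepressor list to 0.02, and of all genes to 0.10.

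Promoter sequences are shown for the 4 members of lowest fold change, because all 4 carry the letters that E2F proteins bind. The match was therefore part of the choice of what to show. RefSeq promoters of build GRCm38.p6 run from 250 bases before a start site to 50 after, and 7 of 10 members had an entry; the lines below stop 30 bases after the start. Capitals mark the 7-letter E2F word TTCCCGC, the word TTGGCGC, the word TTCGCGC or the word TTGCCGC on either strand, with a leading T where the 8-letter form is met.
E2f7, chr10:110745189-110745468, plus strand: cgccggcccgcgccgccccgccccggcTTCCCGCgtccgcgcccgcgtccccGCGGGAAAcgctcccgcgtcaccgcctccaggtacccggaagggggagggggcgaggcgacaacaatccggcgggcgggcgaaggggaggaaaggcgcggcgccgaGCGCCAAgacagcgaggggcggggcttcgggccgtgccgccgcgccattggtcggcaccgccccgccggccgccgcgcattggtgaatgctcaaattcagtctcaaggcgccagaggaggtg
E2f8, chr7:48881567-48881846, minus strand: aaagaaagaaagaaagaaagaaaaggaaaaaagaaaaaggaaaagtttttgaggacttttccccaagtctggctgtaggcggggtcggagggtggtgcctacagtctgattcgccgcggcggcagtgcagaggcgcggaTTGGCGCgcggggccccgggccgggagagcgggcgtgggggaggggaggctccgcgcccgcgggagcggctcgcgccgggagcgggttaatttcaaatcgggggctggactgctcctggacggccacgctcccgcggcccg
Rbl1, chr2:157204505-157204784, minus strand: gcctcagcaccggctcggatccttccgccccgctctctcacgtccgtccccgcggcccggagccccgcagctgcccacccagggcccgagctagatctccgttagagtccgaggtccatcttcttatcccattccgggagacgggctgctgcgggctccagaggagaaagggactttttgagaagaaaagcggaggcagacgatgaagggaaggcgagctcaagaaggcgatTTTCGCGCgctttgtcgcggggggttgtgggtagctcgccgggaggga
E2f3, chr13:29986034-29986313, minus strand: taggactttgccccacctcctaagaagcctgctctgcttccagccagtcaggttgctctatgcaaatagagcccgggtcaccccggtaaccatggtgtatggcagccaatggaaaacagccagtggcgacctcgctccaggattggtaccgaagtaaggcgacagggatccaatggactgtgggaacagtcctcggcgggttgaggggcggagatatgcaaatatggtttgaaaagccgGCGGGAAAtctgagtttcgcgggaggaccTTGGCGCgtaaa

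The 8-letter form, each 7-letter word with 1 more T in front, was found on either strand in the promoters of E2f2, E2f3, E2f7 and Rbl1, 4 of 7 members with an entry. It was found in 14 of 28 G1/S genes with an entry, and in 2.60% of 27025 genes of the table. The 7-letter words, which the 8-letter form contains, occurred in 5 of 7 members, in 20 of 28 G1/S genes and in 10.9% of all genes. E2f7 held 3 such words, at positions -223 to -217, -198 to -192 and -92 to -86 from the start site. In Rbl1 the word lay at -17 to -11 and in the first start site of E2f3 at -11 to -5 and 19 to 25. The second start site of E2f3, which lies 1673 bases inside the annotated gene and is not printed, held no such word. E2f8 held 1 at -111 to -105, in a promoter whose start site lies 477 bases inside the annotated gene. The word of E2f2, a member that was not lower, lay at 41 to 47, beyond the printed stretch of the others. The letters TTTGAA of the CHR element, which the MuvB subunit Lin54 binds, were found on either strand in E2f2 (second start site), E2f3 and E2f8, 3 of 7 members, beside 20.2% of all genes. A match of letters describes the sequence and shows no binding.

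The genes whose pattern over the 8 samples was most like that of E2f1 and E2f7 were listed among 6639 genes with a mean log2 value of at least 7. These genes were read on the same arrays, and 3 samples stand apart, so these correlations describe the 8 samples only. The closest to E2f1 was Cdk2, the kinase partner of cyclin E, with Pearson r = 0.908 and Spearman rho = 0.857, followed by Zkscan3, the epithelial surface gene Epcam, Poglut2 and Polr2m, with r from 0.887 to 0.895. Cdk2 itself differed by 0.05 ± 0.16 between the groups. The closest to E2f7 were Ints4, a subunit of the Integrator complex, Sec61b, a subunit of the protein channel of the endoplasmic reticulum, Osbp, Kctd14 and Cramp1l, with r from 0.952 to 0.979. Ints4 was at -0.65 ± 0.16, Sec61b at -0.60 ± 0.15 and Kctd14 at -1.11 ± 0.28 (limma adjusted p = 0.517 to 0.521). These genes were picked for likeness to E2f7, which did not overlap between the groups, so their lower means follow from the choice. None of these 5 is on the G1/S list. Brighter G1/S genes, such as Ccna2, Rfc4 and Gins2, lay above the limit on mean log2 value and could have appeared. Dimmer ones, such as Gins1, could not. Only the 5 closest genes were listed, so the absence of G1/S genes among them does not show how E2f7 relates to that list.

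Markers of stromal and immune cells had higher group means in the SKI-606 tumours. All 10 fibroblast markers lay above 0, whereas 52.9% of all genes lay below 0. Their summed signals, which weigh bright genes most, were 17888 to 33644 in SKI-606 samples against 14020 to 17541 in vehicle samples. All 9 macrophage markers lay above 0 too, at 12039 to 23212 in SKI-606 samples against 6148 to 11371 in vehicle samples. So did all 8 endothelial markers, at 1826 to 3301 against 757 to 1824. At an unadjusted p under 0.05, 8 of 10 fibroblast, 6 of 9 macrophage and 5 of 8 endothelial markers were higher. Of all genes 6.07% were higher at this threshold. By mean deviation, which weighs each marker alike, the groups overlapped in the fibroblast, macrophage and endothelial lists. There SKI-606 sample 3 stood at -0.26, -0.04 and -0.13, below vehicle sample 1 at -0.21, 0.01 and 0.10. The 7 measured T cell markers lay above 0 and were dim, at 149 to 215 in SKI-606 samples against 57 to 147 in vehicle samples. Of these, 3 had an unadjusted p under 0.05, and by mean deviation the groups did not overlap in this list. Muscle and adipocyte markers varied widely within both groups, from 121 to 12420 and 354 to 5258 in SKI-606 samples and from 180 to 17484 and 347 to 2010 in vehicle samples. In 0 of these lists was a marker at 0 in every sample. SKI-606 samples 1 and 4, the lowest in G1/S genes, E2f7 and E2f8, had the highest fibroblast, macrophage and endothelial scores. The part of these cells in the lower E2f7, E2f8, Rbl1 and G1/S signals was not tested.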

How the data were processed

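The deposited table holds linear ratios for 8 arrays and 45101 probes; the labels name no software or normalization, and labelling followed Affymetrix, per the labels' protocols. From the values, the deposited ratio is each signal over its array median and its probe median, with a constant divisor in 18905 dim probes and a floor of 0.01. Whole-number signals (tolerance 0.002) were recovered and gave back 45101 deposited probes within a relative 0.0001; in a check on made-up data, 99.62% of 5000 probes came out exactly. Recovered array medians were 15 to 16 in SKI-606 and 15 to 23 in vehicle samples. Signals were quantile normalized, 16 was added, log2 taken, and 45037 probes (64 controls left out) were tested with limma 3.58.1 (R 4.3.3), with Benjamini-Hochberg adjustment over all probes and a threshold of 0.05. The script was tested on simulated data.

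The platform annotation gave 34945 probes 1 symbol, 932 several and 9160 none. A gene's brightest probe by mean log2 value stands for it. Exact permutation tests ran over 70 assignments for each of 22 probes. Members, lists and tests were chosen with earlier results of these data known. Beyond the members, the 4 genes of smallest unadjusted p in each pathway list and the 5 most like E2f1 and E2f7 are named. Same-numbered samples were not paired: the correlations of their deviations were 0.021, 0.108, -0.15 and -0.106. Alternatives were other pseudocounts, scalings, weights, a block, a filter on dim probes and samples left out. The 3 samples left out together are those that stood apart in these same data, so that fit is no independent check. Of the alternatives, 1 was added after the data were seen (without SKI-606 samples 1 and 4).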

Additional observations from a re-analysis of the deposited data

Results flagged for a closer look

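In 5 of 82 groups of 4 samples examined, 1 sample lay far from the other 3, by a gap past Dixon's 95% critical value on the log2 scale; chance gives about 1 in 20. E2f4 in SKI-606 sample 1 read 134.1, against 99.8 to 101.2 in the other SKI-606 samples (gap 0.95 of the range). E2f5 probe 1460207_s_at in vehicle sample 2 read 95.1, against 114.5 to 118.0 in the other vehicle samples (0.859). E2f7 in vehicle sample 1 read 73.1, against 91.1 to 94.6 in the other vehicle samples (0.849), and was still above every SKI-606 sample. Tfdp2 in vehicle sample 1 read 72.1, against 85.9 to 88.8 in the other vehicle samples (0.839). Foxm1 in SKI-606 sample 4 read 38.9, against 65.1 to 70.1 in the other SKI-606 samples (0.867).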

How the results depend on the processing

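All 18 other limma fits called 0 probes at an adjusted p under 0.05, with 1691 to 4919 at an unadjusted p under 0.05, and no member passed in any. E2f2, E2f7, Rb1 and Rbl1 kept their sign in all 19 alternatives. With array-median scaling, which moved the median of all genes to 0.10, E2f4 turned to 0.167, and the medians were 0.167 for the repressors, -0.099 for the dimer partner and MuvB list, 0.325 for the upstream list and 0.022 for the corepressors, with 2 G1/S genes lower at an unadjusted p under 0.05. With the deposited ratios on a log2 scale, where the median of all genes was 0.16, E2f4 turned to 0.2, the medians were 0.439 for the activators, 0.2 for the repressors, 0.341 for the upstream list and 0.018 for the corepressors, and 0 G1/S genes were lower. Relative to the all-gene median E2f4 was at 0.07 and 0.04 in these fits and E2f7 at -0.67 and -0.88. Over all genes 281 and 296 were lower at an unadjusted p under 0.05 in these fits, beside 784 in the main fit. Without SKI-606 samples 1 and 4 and vehicle sample 3, E2f3 turned to 0.136 and E2f8 to 0.081, and the medians were -0.103 for dimer partners and MuvB and 0.004 for the G1/S genes, of which 0 were lower; without SKI-606 samples 1 and 4 only, these medians were -0.115 and -0.029, and 0 G1/S genes were lower. With the mean of all probes E2f5 turned to -0.248 and E2f6 to -0.155, the upstream median was -0.026 and 7 G1/S genes were lower. Over all genes 340 were lower at this threshold without the 3 samples, 304 without SKI-606 samples 1 and 4, and 685 with the mean of all probes. With array weights E2f6 turned to -0.058. A pseudocount of 1 gave 6 lower G1/S genes, beside 462 of all genes, and a germline median of 0.083. A pseudocount of 64 gave an activator minus repressor difference of 0.137. The dim Smc1b turned to -0.039 with no normalization, -0.013 with array-median scaling, -0.051 on the ratios, -0.004 with array weights, -0.029 without the 3 samples and -0.022 without SKI-606 samples 1 and 4; Stag3 turned to -0.044 and -0.02 in the last pair of settings, and Slc25a31 to 0.104 and 0.045, and to 0.009 with array weights. Leaving out 1 sample at a time, the values ranged from -0.028 to 0.278 for E2f1, -0.234 to 0.174 for E2f6, -0.251 to -0.051 for the corepressor median, 4 to 21 for the lower G1/S genes, -0.003 to 0.181 for Stag3, -0.017 to 0.046 for Smc1b and -0.086 to 0.052 for Slc25a31. The cause of these shifts was not tested. The samples share replicate numbers, but the replicate block changed no call (0 probes called, 3853 at an unadjusted p under 0.05, E2f7 at -0.783 with an adjusted p of 0.447). The filter on dim probes left no value for the germline genes, Lin52, Cdkn2a, Cbx3 and E2f3 probe 1427462_at. Probes with signals near the floor of the scale, 8 of the 22 with every signal under 25, cannot show a difference.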
